A study of Mus musculus with 7 samples.

Results

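The 8 genes studied here are commonly used to identify classical monocytes, and were followed from bone marrow through blood and spleen into tumor tissue: Ly6c2, Vcan, F13a1, Chil3, Plac8, Mgst1, Lyz1 and Lyz2. They were chosen by name, with earlier results of these data known, and are 8 of the 25127 genes in the count table. The level and the share of cells with a transcript were read in each library and in each of the clusters that the authors assigned to the cells. CITE-seq, which reads RNA and oligo-tagged antibodies in the same cell, was run on cells of C57/Bl6 mice described as CD11b+ enriched. The 3 naive libraries came from blood, bone marrow and spleen of mice without a tumor. The 4 tumor-bearing libraries came from the blood, bone marrow, spleen and tumor tissue of mice with an LLC tumor at day 14. LLC is a transplantable tumor of this strain, commonly known as Lewis lung carcinoma. Each group was 1 library, so no difference between groups has a replicate check, and no p-value is given. Whether tissues of 1 animal were paired, or animals pooled, is not stated in the labels.

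Classical monocytes are made in the bone marrow, leave it through the chemokine receptor Ccr2, circulate, and enter inflamed tissue and tumors, where they can become macrophages or dendritic cells. Some convert in the circulation to non-classical monocytes, which patrol vessels and carry little Ly-6C. Ly6c2 encodes the Ly-6C surface protein by which the 2 kinds are separated in the mouse. Vcan (versican, a matrix proteoglycan), F13a1 (the A chain of coagulation factor XIII), Chil3 (the chitinase-like lectin Ym1) and the lysozymes Lyz1 and Lyz2 are secreted or stored proteins. Plac8 is a small cysteine-rich intracellular protein. Mgst1 is a membrane-bound glutathione transferase that protects against oxidised lipids.

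Lyz1 and Lyz2 are neighbours on chromosome 10, on the minus strand, with 5475 bases between them, and both UMI counts therefore depend on telling near copies apart. The stretches from 250 to 51 bases before their RefSeq starts (GRCm38.p6, minus strand, 5′ to 3′) are shown because the pair kept nearly the same UMI ratio in every cluster of a library. Capitals mark the bases that differ between the aligned stretches, of which 150 of 198 aligned bases, or 75.8%, were identical.
Lyz1, chr10:117292919-117293118: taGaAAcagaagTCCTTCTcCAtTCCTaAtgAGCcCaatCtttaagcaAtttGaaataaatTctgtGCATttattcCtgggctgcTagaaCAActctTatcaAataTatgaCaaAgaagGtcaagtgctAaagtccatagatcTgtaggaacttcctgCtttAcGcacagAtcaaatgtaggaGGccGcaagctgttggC
Lyz2, chr10:117282323-117282522: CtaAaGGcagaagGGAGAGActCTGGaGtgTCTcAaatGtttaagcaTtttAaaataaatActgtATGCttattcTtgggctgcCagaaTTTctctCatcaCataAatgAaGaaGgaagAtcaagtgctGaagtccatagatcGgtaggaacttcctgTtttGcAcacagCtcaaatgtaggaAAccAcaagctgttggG
The bases between these stretches and the starts, not shown, were identical in both genes. The transcripts were closer than the stretches shown, with 96.0% identity over the whole length. Over the last 400 bases, where 3′ reads lie, identity was 97.2%, with an identical run of up to 104 bases.

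Further windows of 250 bases before the RefSeq start are shown for Ly6c2 and Chil3. The tumor tissue level of Ly6c2 lay within its range in blood and spleen. Chil3 had the lowest tumor tissue level of the 8 relative to tumor-bearing blood. Capitals mark matches, on either strand, to a PU.1 core (GAGGAA) and a C/EBP motif (TTNNGNAA, N being any base). PU.1 and C/EBP proteins are transcription factors of the myeloid lineage. No 2 matches overlapped in these windows.
Ly6c2, chr15:75111972-75112221, minus strand: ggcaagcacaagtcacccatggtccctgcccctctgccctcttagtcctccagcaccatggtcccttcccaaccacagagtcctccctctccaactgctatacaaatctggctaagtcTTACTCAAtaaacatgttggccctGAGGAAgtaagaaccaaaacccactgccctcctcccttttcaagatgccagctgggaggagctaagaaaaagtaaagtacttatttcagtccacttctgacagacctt
Chil3, chr3:106167565-106167814, minus strand: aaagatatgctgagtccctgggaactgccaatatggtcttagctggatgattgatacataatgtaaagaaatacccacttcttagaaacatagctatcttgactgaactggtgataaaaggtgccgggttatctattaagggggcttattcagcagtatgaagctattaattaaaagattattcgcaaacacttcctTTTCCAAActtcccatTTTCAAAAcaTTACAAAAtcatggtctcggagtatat
The Ly6c2 window shown held 1 PU.1 core and 1 C/EBP match. A second Ly6c2 window, not shown, overlaps it and held 2 of each. The Chil3 window held 3 C/EBP matches within the 53 bases next to the start. Over all windows of the 8 genes, 4 genes (F13a1, Ly6c2, Mgst1 and Plac8) held the PU.1 core and 7 held the C/EBP motif, all but Vcan. The 8 genes have 12 windows, of which 5 held the PU.1 core and 10 the C/EBP motif. Both Ly6c2 windows are among them and share matches. Of 32851 RefSeq mouse promoter windows of this length, 23.25% held the PU.1 core and 36.85% the C/EBP motif, and of 27025 genes, counted over all their windows, 25.85% and 40.27% did. A match is a run of letters and was not measured as a binding site.

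The counts covered 4290 cells, 1917 of them from tumor tissue and 57, the fewest, from tumor-bearing bone marrow. A median cell held 8841 UMIs in tumor tissue, and up to 12445 in the other libraries. Library totals ran from 617821 to 20844058 UMIs. Levels are UMIs per 1000000 UMIs of a library or cluster (CPM), with exact 95% intervals in parentheses that cover counting error only. UMIs of 1 cell are not independent, so these intervals are too narrow for a difference between mice. Libraries shared 2 barcodes, in 4 cells. Lists of other cell types set the limits of the label monocyte: T and NK cell genes summed to at most 7.6 CPM in any library, B cell genes to between 44.0 and 380.1 CPM, and the 12 neutrophil genes to between 379.4 CPM in tumor tissue and 9254 CPM in naive bone marrow. In summed libraries, fewer cells of a type and less RNA per cell cannot be told apart.

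Across the path from marrow to tumor the 8 genes did not move as a block. Vcan was the only member highest in tumor tissue. Mgst1, Chil3, F13a1, Plac8, Lyz1 and Lyz2 were lowest there, and Ly6c2 in tumor tissue lay inside its range in blood and spleen. Tumor-bearing blood, spleen and bone marrow each had more Vcan, Chil3 and Plac8 and less Lyz1 and Lyz2 than the naive library of the same tissue.

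**Figure D1:**
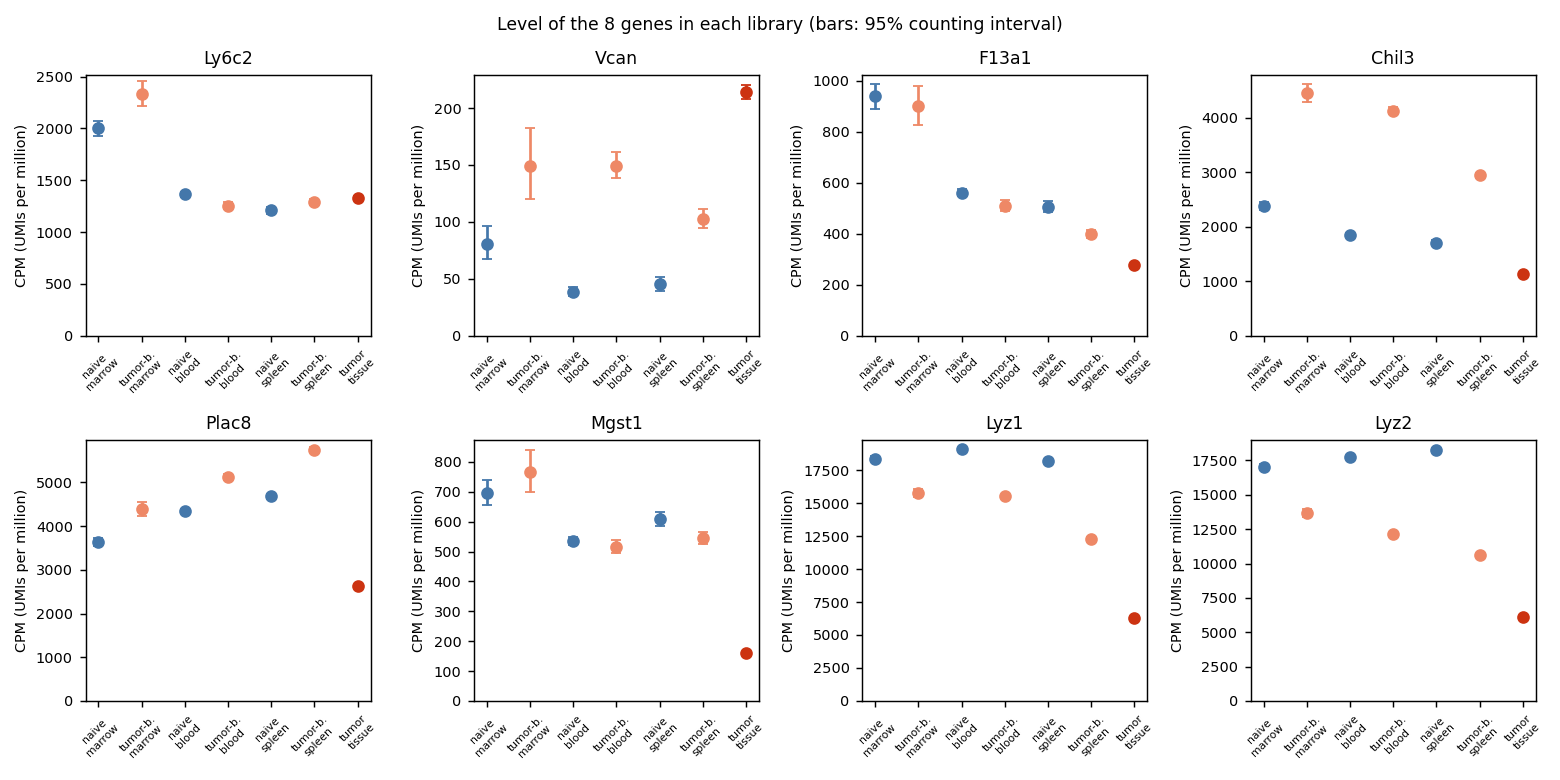
Level of each gene in CPM (vertical axes, starting at 0) in the 7 libraries; blue is naive, orange tumor-bearing ("tumor-b.") and red tumor tissue, and bars are 95% counting intervals. Vcan is highest in tumor tissue at 214 CPM, while the lysozymes and Mgst1 are lowest there.

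A gene entered the counts below when the pair of libraries held 30 or more of its UMIs and either library reached 20 CPM, and all 8 members did so in every comparison. Vcan and Chil3 made 2 of 8 members past 2-fold, both higher, in tumor-bearing over naive blood, a change seen in 0.566% of 5300 measured genes. In the spleen Vcan alone passed, 1 of 8, beside 0.332% of measured genes that were higher. In bone marrow 0 of 8 passed, beside 3.23% either way. Tumor tissue had 3 of 8 lower than tumor-bearing blood (Chil3, Mgst1 and Lyz1), as had 9.44% of measured genes. Against tumor-bearing spleen 3 of 8 were lower (Chil3, Plac8 and Mgst1, beside 12%) and Vcan was higher (beside 10.7%), and against tumor-bearing bone marrow 5 of 8 were lower (F13a1, Chil3, Mgst1, Lyz1 and Lyz2, beside 12.1%). Naive bone marrow had Vcan, 1 of 8, higher than naive blood (0.718%). No member passed in naive spleen over naive blood (0.279% either way), in tumor-bearing bone marrow over blood (3.40%) or in tumor-bearing spleen over blood (0.406%). These comparisons share libraries and are not independent of each other.

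Comparisons with tumor tissue depended on the scaling. The median log2 ratio of all measured genes in tumor tissue to tumor-bearing blood, spleen and bone marrow was -0.13, -0.15 and -0.17, and 0.07, 0.10 and 0.06 after median-of-ratios scaling. The median log2 ratio of the 8 members was -0.98, -0.88 and -1.24 in the same order. In tumor-bearing over naive blood, spleen and bone marrow the members' medians were -0.09, -0.03 and 0.18, beside 0.01, 0.02 and 0.04 for all measured genes.

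Ly6c2, the gene of the Ly-6C surface protein, was highest in bone marrow. It read 2001 CPM (1931 to 2073) in naive and 2332 CPM (2214 to 2456) in tumor-bearing marrow. Blood read 1366 CPM naive and 1252 CPM tumor-bearing, spleen 1210.0 and 1293 CPM, and tumor tissue 1331 CPM (1315 to 1347). The 2 marrow libraries therefore stood above the other 5, which lay between 1210.0 and 1366 CPM. Naive marrow was 1.47-fold (1.41 to 1.52) above naive blood, and tumor-bearing marrow 1.86-fold (1.76 to 1.97) above tumor-bearing blood. Tumor tissue was 1.06-fold (1.03 to 1.09) over tumor-bearing blood and 1.03-fold over tumor-bearing spleen, and 1.75-fold (1.66 to 1.85) below tumor-bearing marrow. The ratio to spleen was 0.971 when mitochondrial, ribosomal-protein and haemoglobin genes were left out of the totals, and no direction is given. Cells with a Ly6c2 UMI, after thinning each cell to 2000 UMIs, made up 94.7% of tumor-bearing marrow, 89.4% of naive marrow and 69.4% to 73.2% of the other 5 libraries.

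Inside clusters the marrow to blood ratio of Ly6c2 was lower than in whole libraries. Naive marrow over naive blood was 1.35- to 1.39-fold in clusters 0 and 2, the ones with at least 20 cells in both. The non-classical monocyte list summed to 1055 CPM in naive marrow and 2075 CPM in naive blood, and its part in the whole-library ratio was not tested.

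Between clusters Ly6c2 varied more than between libraries. Outside tumor tissue it ran from 459 CPM in cluster 4 of tumor-bearing spleen to 3004 CPM in cluster 2 of naive marrow. Cluster 4 is non-classical monocyte-like, with 7 of the fixed markers among its 10 leading genes, among them Eno3, Ear2, Ace and Treml4. Inside tumor tissue Ly6c2 ran from 608 CPM in the macrophage-like cluster 11, led by C1qa, Folr2 and Pf4, to 2688 CPM in cluster 10, led by the interferon-response genes Rsad2, Ifit1 and Cxcl10. Clusters 5 and 8 of tumor tissue read 2223 and 2210 CPM, and the other 6 tumor clusters read 1224 CPM or less. The library level of Ly6c2 in tumor tissue was thus a mean over clusters on both sides of the blood value.

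The Ly-6C antibody tag gave another readout in the same cells, as the natural log of 1 plus the tag count per 10000 tag counts of a cell. The antibody may bind the products of Ly6c1 and Ly6c2 alike, and Ly6c1 RNA was at most 2.11 CPM in any library. Median tags were 8.24 in naive and 8.10 in tumor-bearing marrow, 8.22 and 7.96 in spleen, 7.93 and 7.79 in blood, and 7.50 in tumor tissue. Tumor tissue was lowest, with quartiles of 6.93 and 7.87, whereas its Ly6c2 RNA was not. The order of the other libraries depended on scaling to the tag total of a cell. Median raw tag counts were 1184 in naive and 1030 in tumor-bearing marrow, 876.5 and 483 in spleen, 643.5 and 1497 in blood, and 310 in tumor tissue. Tumor tissue was lowest on both scales, while tumor-bearing blood was next to lowest when scaled and highest in raw counts. The difference of tumor-bearing from naive blood was -0.137 on the natural log scale when scaled and 0.843 in raw counts, so no direction is given.

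The tag difference of tumor tissue from tumor-bearing blood was -0.292 on the natural log scale, and -1.572 in raw tag counts, whose median totals per cell were 6045 in the blood and 1602 in the tumor. Over tumor clusters the scaled tag was lowest in cluster 11 at 6.60 and highest in cluster 9 at 7.84. Clusters 5, 7 and 10 read 7.80, 7.78 and 7.76. On this scale these and cluster 9 were near the 7.79 of tumor-bearing blood. Clusters 3, 8, 13 and 17 read 7.05, 7.28, 7.15 and 6.78. Raw counts gave another order: cluster 11 was highest with a median of 611.5 of 7423 tag counts per cell, cluster 9 had 291.5 of 1084, and cluster 13 was lowest with 14 of 106. Spearman's rho of the scaled tag on Ly6c2 RNA over cells thinned to 5000 UMIs was 0.22 to 0.45 in the 7 libraries (56 to 1727 cells). Over the 9 tumor clusters rho was 0.517, and over the 25 clusters of the other libraries with at least 20 cells 0.505. These points share libraries, antibody pool and depth, and the values are descriptions.

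**Figure D2:**
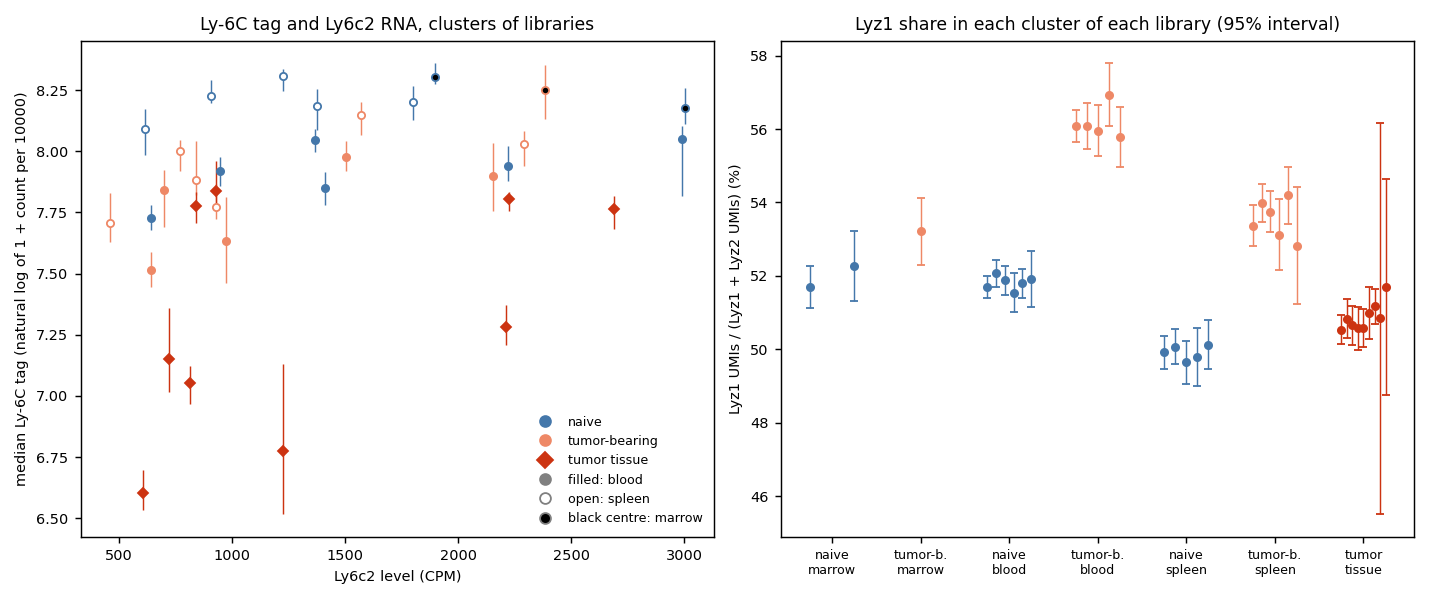
Left, median Ly-6C tag of each cluster of each library (vertical axis, natural log of 1 plus count per 10000, bars 95% order-statistic interval over cells) against its Ly6c2 level in CPM; right, Lyz1 as a percent of Lyz1 plus Lyz2 UMIs in each cluster, grouped by library, with 95% exact intervals and an axis that does not start at 0. The lowest scaled tags belong to tumor clusters, at RNA levels also seen elsewhere, while other tumor clusters lie within the range of tumor-bearing blood. On the right, tumor-bearing blood stands apart with Lyz1 shares of 55.8% to 56.9%.

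Vcan, the matrix proteoglycan, had the largest tumor-bearing to naive ratio of the 8 in blood and in spleen. Naive libraries read 38.5 CPM (34.7 to 42.5) in blood, 45.2 CPM (39.2 to 51.9) in spleen and 80.5 CPM (66.9 to 96.0) in marrow. Tumor-bearing libraries read 149 CPM (138 to 161) in blood, 103 CPM (94.8 to 112) in spleen, 149 CPM (120 to 183) in marrow and 214 CPM (208 to 220) in tumor tissue. Every tumor-bearing library was above every naive one, although the intervals of tumor-bearing spleen and naive marrow overlapped. The tumor-bearing to naive ratio was 3.89 (3.42 to 4.42) in blood, which ranked 6 of 5300 measured genes from the top, 2.28 (1.94 to 2.69) in spleen, ranked 13 of 5426, and 1.85 (1.40 to 2.44) in marrow, ranked 101 of 5505.

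Vcan transcripts also reached more cells. At full depth a Vcan UMI was seen in 21.7% of cells of naive blood, 49.4% of those of tumor-bearing blood and 57.2% of those of tumor tissue. Thinned to 2000 UMIs, the shares were 5.54% (4.07 to 7.34), 19.8% (15.7 to 24.3) and 29.4% (27.4 to 31.6). Spleen gave 7.69% naive and 12.8% tumor-bearing, and marrow 11.3% and 26.3%, where the intervals overlapped at 15.5 to 17.4%. In tumor cluster 17, led by Klrd1, H2-Eb1 and Cd209a, 3.64% of thinned cells had a Vcan UMI at a median depth of 10695 UMIs. No cluster gave a cell type known to lack these genes, which would set a level for free RNA. Cluster 6 had 3 B cell markers among its 10 leading genes (Igkc, Cd79a and Cd79b), yet read 11069 to 20050.0 CPM of the lysozyme Lyz1 in blood and spleen, and is left unnamed. Tumor cluster 13, also unnamed, was led by the matrix genes Col3a1 and Dcn and held 40 cells with a median of 1477.5 UMIs. At full depth 92.5% of its cells had a Lyz1 UMI, 40% a Ly6c2 UMI and 20% a Vcan UMI, and the part of free RNA in these shares was not tested.

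Inside clusters the Vcan difference remained. In cluster 0 of blood, Vcan read 64.3 CPM naive and 337 CPM tumor-bearing, a 5.25-fold difference (4.35 to 6.37). The other 4 blood clusters gave 2.11- to 3.26-fold, the top of that range in cluster 4 from 11 naive and 18 tumor-bearing UMIs, under the minimum. In spleen the 5 clusters gave 1.19- to 3.66-fold, and cluster 2 with 1.19 (0.837 to 1.72) had an interval that includes 1. Cluster 0 of marrow gave 2.32-fold (1.65 to 3.25). Cluster 0, led by Mmp8, Camp, F13a1, Hp and Chil3, mixes neutrophil granule genes with monocyte genes and is left unnamed. Without the neutrophil-like cluster 12 the blood ratio was 3.95 and the spleen ratio 2.21. Thinned to 2000 UMIs per cell, the spleen ratio was 1.68 and the marrow ratio 2.27, on either side of 2 from their full-depth values.

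In tumor tissue Vcan was 1.43-fold (1.32 to 1.55) over tumor-bearing blood, 1.44-fold (1.17 to 1.79) over marrow and 2.08-fold (1.91 to 2.27) over spleen. The spleen ratio was 1.96 when mitochondrial, ribosomal-protein and haemoglobin genes were left out of the totals. Vcan was uneven inside the tumor. Cluster 7, led by Thbs1, Slpi and Ptgs2, held 479 CPM, clusters 10 and 5 held 315 and 300 CPM, and cluster 17 held 8.18 CPM. Naive marrow was 2.09-fold (1.69 to 2.57) over naive blood, and 1.60-fold when both libraries were given the same mix of clusters.

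F13a1, the A chain of factor XIII, declined along the path. It read 939 CPM (891 to 989) in naive and 900 CPM (827 to 978) in tumor-bearing marrow, 561 and 511 CPM in blood, 507 and 398 CPM in spleen, and 276 CPM (269 to 283) in tumor tissue. The 2 marrow libraries overlapped within counting error and stood above the rest, and tumor tissue stood below all. Naive marrow was 1.67-fold (1.58 to 1.77) over naive blood, and tumor tissue was 3.26-fold (2.99 to 3.56) below tumor-bearing marrow, 1.85-fold (1.76 to 1.94) below blood and 1.44-fold (1.38 to 1.52) below spleen. The marrow to blood ratio was 1.22 with equal mixes of clusters. F13a1 is also a platelet gene. The 6-gene platelet list summed to at most 8.9 CPM outside tumor tissue and to 286.5 CPM in it. Only 1 of the 6 passed the minimum in tumor tissue over tumor-bearing blood. Pf4 on that list was also among the leading genes of the macrophage-like cluster 11. The part of platelet RNA in the F13a1 level was not tested.

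F13a1 differed widely between clusters. In blood it read 986 CPM naive and 1024 CPM tumor-bearing in cluster 0, and 120 and 53.2 CPM in cluster 4. The cluster 4 pair gave the 1 member ratio inside a cluster that was at least 2-fold lower in tumor-bearing mice (2.26-fold, from 198 and 44 UMIs). F13a1 in cluster 4 of spleen was 82.2 and 81.0 CPM, a ratio of 0.984 (0.667 to 1.45). Tumor clusters ran from 34.4 CPM in cluster 17 to 441 CPM in cluster 9.

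Chil3, the Ym1 lectin of alternatively activated myeloid cells, was higher in every tumor-bearing tissue and lowest in the tumor. It read 1852 CPM (1825 to 1879) in naive and 4130 CPM (4071 to 4190) in tumor-bearing blood, 2377 and 4448 CPM in marrow, 1709 and 2944 CPM in spleen, and 1126 CPM (1112 to 1141) in tumor tissue. The tumor-bearing circulation and lymphoid organs were all above the naive ones, and tumor tissue was below both. The ratio was 2.23 (2.19 to 2.28) in blood, ranked 17 of 5300, 1.87 (1.78 to 1.97) in marrow and 1.72 (1.68 to 1.77) in spleen. Tumor tissue was 3.67-fold (3.60 to 3.74) below tumor-bearing blood, 3.95-fold (3.80 to 4.11) below marrow and 2.61-fold (2.56 to 2.67) below spleen.

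Chil3 was higher in tumor-bearing mice in all 5 blood clusters, by 1.63- to 2.34-fold, and in all 5 spleen clusters, by 1.09- to 2.19-fold. Its top value was 6600 CPM in cluster 0 of tumor-bearing blood, against 2815 CPM in cluster 0 of naive blood. In tumor tissue clusters 9 and 7 held 2529 and 2220 CPM, within the range of naive blood clusters, and clusters 11, 13 and 17 held 263, 300 and 72.0 CPM. Thinned to 2000 UMIs, 65.6% of naive blood cells, 82.2% of tumor-bearing blood cells and 47.2% of tumor tissue cells had a Chil3 UMI. The near copy Chil4, 94.4% identical over the transcript, was at most 0.174 CPM in any library.

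The neutrophil list moved with Chil3 in part. Of its 9 measured genes, 7 were at least 2-fold higher in tumor-bearing over naive blood, and its sum was 1507 CPM in naive and 4137 CPM in tumor-bearing blood, 2921 and 4931 CPM in spleen, 9254 and 8436 CPM in marrow, and 379 CPM in tumor tissue. In marrow, where that sum was lower in the tumor-bearing library, Chil3 was 1.87-fold higher. Without cluster 12, the neutrophil-like cells, the Chil3 ratio was 2.22 in blood, 1.72 in spleen and 1.91 in marrow. Cluster 0, which also has neutrophil granule genes among its leading genes, stayed in these ratios. The part of neutrophil RNA in the Chil3 ratios was not tested.

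**Figure D3:**
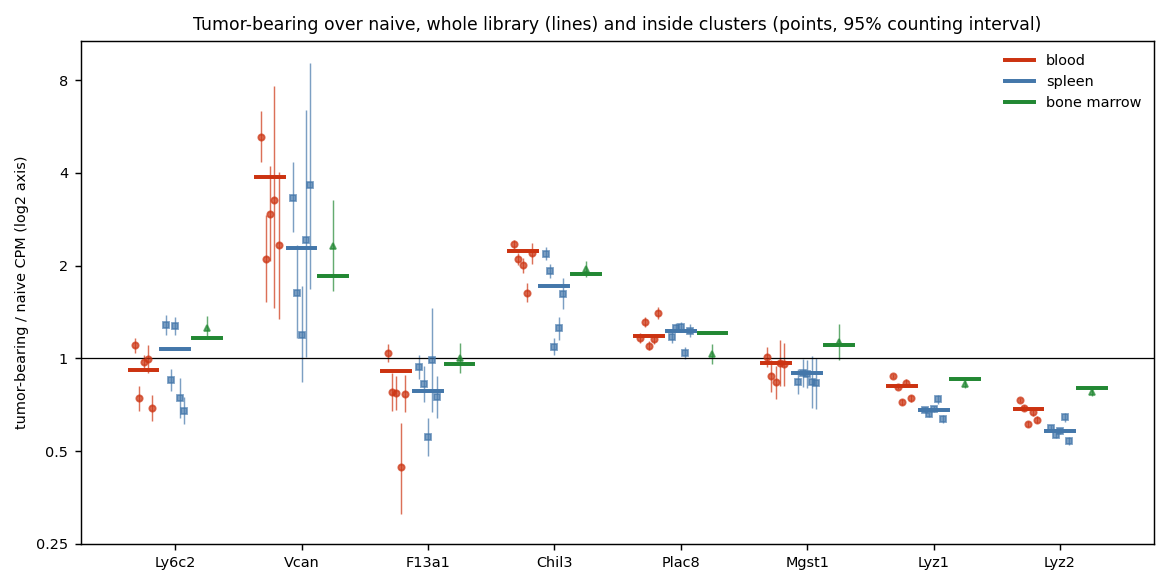
Tumor-bearing over naive CPM ratio (vertical axis, log2 scale) of each gene in whole libraries (horizontal lines) and inside each cluster with at least 20 cells in both libraries (points with 95% counting intervals), for blood, spleen and bone marrow. All Vcan and Chil3 points lie above 1, and all Lyz1 and Lyz2 points lie below 1.

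The lysozymes Lyz1 and Lyz2, which break down bacterial cell walls, were lower in tumor-bearing mice and lowest in the tumor. Lyz1 read 19065 CPM in naive and 15526 CPM in tumor-bearing blood, 18379 and 15749 CPM in marrow, 18171 and 12310.0 CPM in spleen, and 6286 CPM in tumor tissue. Lyz2 read 17731 and 12133 CPM in blood, 17019 and 13651 CPM in marrow, 18259 and 10610.0 CPM in spleen, and 6102 CPM in tumor tissue. The 3 naive libraries were close to each other, the tumor-bearing ones lay below all 3, and tumor tissue below those. No tumor-bearing to naive ratio reached 2-fold. In blood Lyz1 was 1.23-fold (1.22 to 1.24) and Lyz2 1.46-fold (1.45 to 1.48) lower, ranked 318 and 45 of 5300 from the bottom. In spleen they were 1.48-fold and 1.72-fold lower, and Lyz2 ranked 11 of 5426 from the bottom. In marrow they were 1.17-fold and 1.25-fold lower, ranked 1321 and 933 of 5505 from the bottom, far from the extreme.

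The lysozyme difference was present in every cluster compared. Lyz1 ratios were 0.721 to 0.873 over 5 blood clusters and 0.635 to 0.736 over 5 spleen clusters, and Lyz2 ratios were 0.612 to 0.731 and 0.539 to 0.643. In cluster 0 of marrow they were 0.828 and 0.779. Each of these intervals lay below 1. Nearly every cell held the transcripts: thinned to 2000 UMIs, 96.4% of tumor tissue cells had a Lyz1 UMI and 98.7% to 100% elsewhere. Outside tumor tissue the share was near its ceiling in naive and tumor-bearing libraries alike. In tumor cluster 17, 54.5% of thinned cells had a Lyz1 UMI.

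Because their transcripts are nearly identical, the pair was also summed, a choice made after seeing the data. The sum was 36795 CPM in naive and 27659 CPM in tumor-bearing blood (1.33-fold lower), 36429 and 22919 CPM in spleen (1.59-fold lower), 35398 and 29400 CPM in marrow (1.20-fold lower) and 12388 CPM in tumor tissue. Tumor tissue was 2.23-fold (2.22 to 2.25) below tumor-bearing blood, 1.85-fold (1.84 to 1.86) below spleen and 2.37-fold (2.34 to 2.41) below marrow. Apart, Lyz1 was 2.47-fold and Lyz2 1.99-fold below blood in the tumor, on either side of 2.

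The Lyz1 share of the pair followed the library rather than the cluster. It was 51.8% (51.6 to 52.0) in naive and 56.1% (55.9 to 56.4) in tumor-bearing blood, 49.9% and 53.7% in spleen, 51.9% and 53.6% in marrow, and 50.7% in tumor tissue. Over clusters it ran only from 51.5% to 52.1% in naive blood, from 55.8% to 56.9% in tumor-bearing blood, from 49.6% to 50.1% in naive spleen and from 50.5% to 51.7% over the 9 tumor clusters, although Lyz1 itself ran from 970 to 10702 CPM between those 9. Among cells with at least 50 lysozyme UMIs, the variance of the share between cells was 0.664 to 0.975 times the binomial value in the 7 libraries. No library therefore had more spread between cells than counting gives. Whether the share between libraries belongs to the mice or to the assignment of reads was not tested.

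Plac8, the cysteine-rich intracellular protein, behaved otherwise. It read 4346 CPM in naive and 5118 CPM in tumor-bearing blood, 3641 and 4383 CPM in marrow, 4677 and 5751 CPM in spleen, and 2632 CPM (2610 to 2654) in tumor tissue. Within each disease state spleen was above blood and blood above marrow, the reverse of F13a1. The tumor-bearing to naive ratio was 1.18 to 1.23 in all 3 tissues, and above 1 in all 11 clusters compared, at 1.03 to 1.40. Tumor tissue was 2.19-fold (2.16 to 2.22) below tumor-bearing spleen, 1.95-fold below blood and 1.67-fold below marrow. With TMM scaling the spleen ratio was under 2-fold.

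Plac8 differed from most other members between cluster 0 and the non-classical monocyte-like cluster 4. In naive blood it read 3078 CPM in cluster 0 and 4436 CPM in the non-classical monocyte-like cluster 4, where Ly6c2, Vcan, F13a1, Mgst1, Lyz1 and Lyz2 were lowest of the 6 blood clusters with at least 20 cells. In tumor-bearing blood the values were 3585 and 5113 CPM. Other clusters with high Ly6c2 were above cluster 4. Over all libraries Plac8 read 6461 CPM in cluster 2, 7045 CPM in cluster 16 and 5134 CPM in cluster 4. Ly6c2 in these clusters read 2224, 3231 and 600 CPM. In tumor tissue Plac8 split the clusters: 6340 CPM in cluster 10, 5308 CPM in cluster 5 and 4088 CPM in cluster 9, against 703 CPM in the macrophage-like cluster 11 and 919 CPM in cluster 3, led by Spp1, Arg1 and Ecm1.

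Mgst1, the glutathione transferase, had the largest ratio of the 8 between tumor tissue and the nearest other library, which was tumor-bearing blood. It read 535 CPM in naive and 516 CPM in tumor-bearing blood, 696 and 767 CPM in marrow, 610 and 546 CPM in spleen, and 159 CPM (154 to 165) in tumor tissue. The 6 other libraries lay between 516 and 767 CPM, and tumor tissue lay below all of them, 3.24-fold (3.07 to 3.41) below tumor-bearing blood, 3.42-fold (3.26 to 3.60) below spleen and 4.81-fold (4.36 to 5.30) below marrow. Tumor-bearing to naive ratios were 0.964 (0.917 to 1.01) in blood, 0.895 (0.850 to 0.943) in spleen and 1.10 (0.988 to 1.23) in marrow. Thinned to 2000 UMIs, 23.8% of tumor tissue cells had a Mgst1 UMI and 55.9% to 73.7% of cells elsewhere. Tumor cluster 9 read 557 CPM, inside the range of the other tissues, while clusters 3, 8 and 11 read 61.4, 66.4 and 39.3 CPM.

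**Figure D4:**
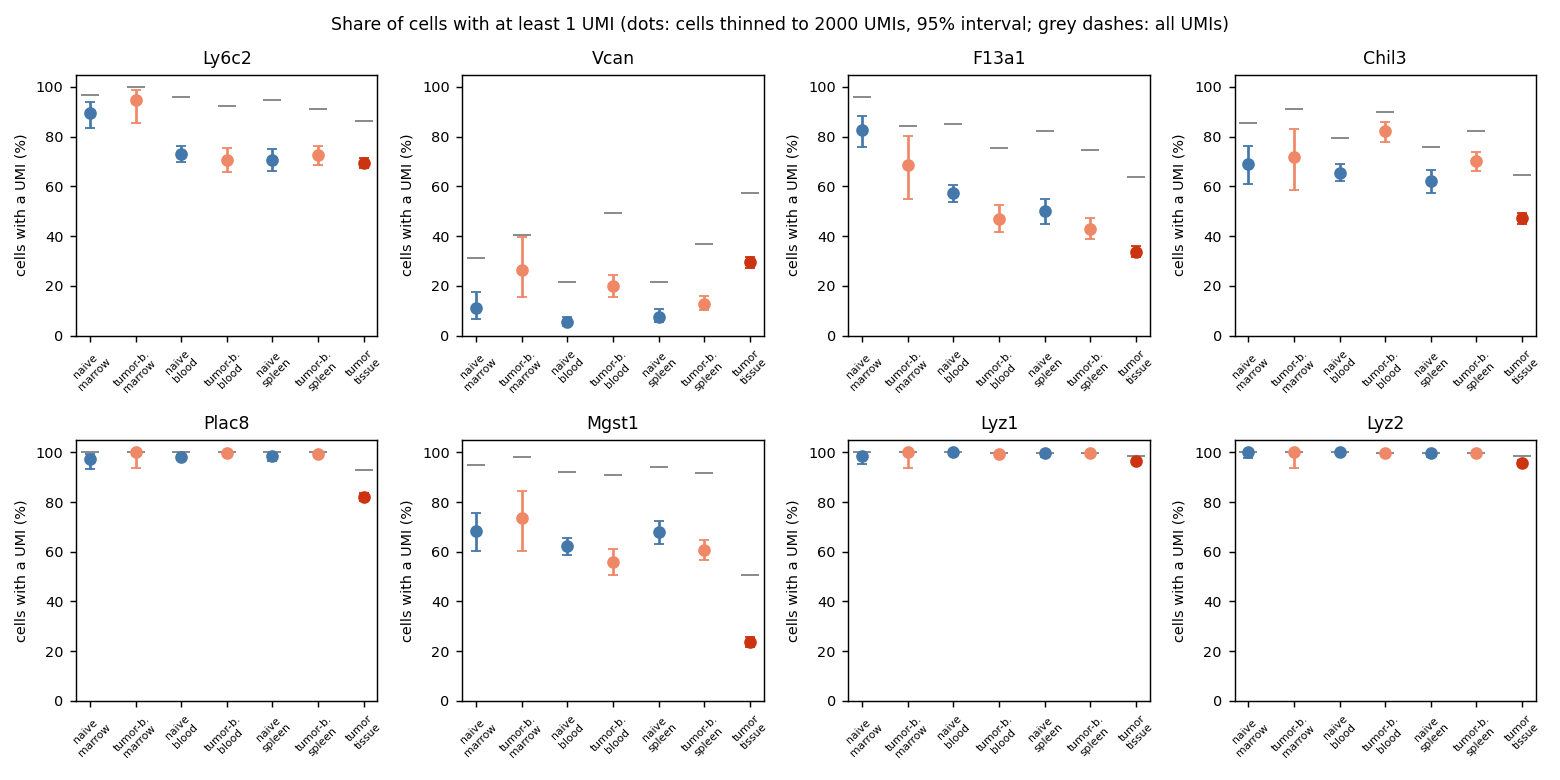
Percent of cells with at least 1 UMI of each gene (vertical axes) in the 7 libraries, for cells thinned to 2000 UMIs (dots with 95% exact intervals) and at full depth (grey dashes). Vcan is the gene with its highest share in tumor tissue, at 29.4% of thinned cells, and Mgst1 is at 23.8% there.

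Counted together per cell, fewer members were seen in the tumor. Cells thinned to 2000 UMIs had a UMI of 6.17 of the 8 genes on average in naive and 6.35 in tumor-bearing marrow, 5.62 and 5.75 in blood, 5.56 and 5.58 in spleen, and 4.78 in tumor tissue. Cells with 4 or fewer made up 42.8% of tumor tissue and 5.26% to 17.6% of the other libraries. Among clusters the mean ran from 2.84 in cluster 17 and 3.88 in the macrophage-like cluster 11 to 6.42 in cluster 0. Tumor clusters 9 and 5 averaged 5.60 and 5.42, above the 4.72 of the non-classical monocyte-like cluster 4. The macrophage list summed to 6879 CPM in tumor tissue and to between 1133 and 3243 CPM elsewhere, and its part in the lower count was not tested.

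**Figure D5:**
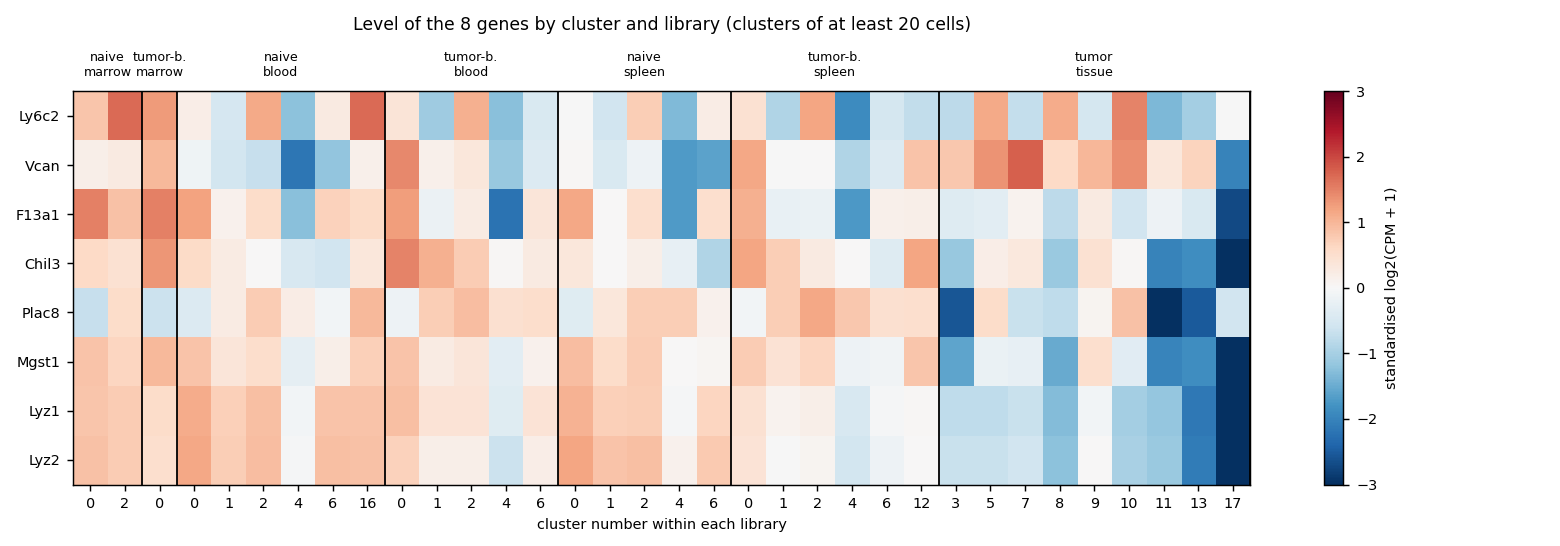
Level of each gene (rows) in every cluster with at least 20 cells of every library (columns, grouped by library), as log2(CPM + 1) standardised over the 34 columns of each row; red is above and blue below the row mean. Most rows are blue across the tumor columns, while the Vcan row is red in them except in cluster 17, and Ly6c2 is mixed.

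Over all tumor-bearing to naive pairs inside clusters, 12 of 88 member ratios were at least 2-fold higher and 1 lower, with 2 not measured. In the same 11 pairs of clusters, 2.57% of gene ratios measured passed 2-fold either way. All 12 higher ratios belonged to Vcan (7) and Chil3 (5). Clusters were made from all genes, these 8 included, so differences between clusters are descriptions.

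Members varied together unevenly. Over cells thinned to 5000 UMIs, the correlation of Lyz1 with Lyz2 was 0.86 to 0.94 in the 7 libraries. F13a1 with Lyz2 gave 0.16 to 0.56, F13a1 with Plac8 was below 0 in all 7 libraries (-0.45 to -0.05), and Ly6c2 with Vcan gave -0.09 to 0.19. Over the 34 clusters of libraries, the correlation of each gene with the mean of the other 7 was 0.92 for Mgst1, 0.84 for Chil3, 0.83 for Lyz1, 0.81 for Lyz2, 0.72 for F13a1, 0.40 for Ly6c2, 0.36 for Plac8 and 0.22 for Vcan. Mgst1 followed Lyz1 at 0.92 and Chil3 at 0.91. Lyz1 and Lyz2, near copies, correlated at 0.99 over these clusters. Each is part of the other's mean, and the remaining genes are set against means that hold both. The lysozyme pattern therefore weighs more than that of a single gene. Of the 34 points, 9 are tumor clusters, and the part of the difference between tumor and other tissues in these values was not tested. Some points rest on few UMIs: Mgst1 had 4 in cluster 17 and 3 in cluster 13, and Vcan had 5 in cluster 17. Points of 1 library share its depth and RNA pool, and these values are descriptions.

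Other genes with the most similar pattern were ranked among 6369 genes over the same 34 clusters of libraries. Both lysozymes count in the mean of the 8. The mean of the 8 was followed most closely by C3 (complement component, r = 0.94), Cd177 (a surface glycoprotein known from neutrophils, 0.93), Hp (haptoglobin, 0.92), Gstm1 (a glutathione transferase, 0.91), Ethe1 (a mitochondrial sulfur dioxygenase, 0.90) and Crybb1 (a crystallin, 0.90). The least alike were Pea15a (-0.86), Ywhah (-0.85) and Arhgdia (-0.83). Gene by gene, the top match was Snx10 for Ly6c2 (0.88), Tarm1 for Vcan (0.85), Emb for F13a1 (0.88), Hp for Chil3 (0.94), Samhd1 for Plac8 (0.93), Cd177 for Mgst1 (0.98) and Ethe1 for both Lyz1 (0.94) and Lyz2 (0.93). The next matches were Ifi203 for Ly6c2, Slpi for Vcan, Gas7 for F13a1, Shfm1 for Chil3, Arl5c for Plac8, Gstm1 for Mgst1, Dgkg for Lyz1 and Lamp1 for Lyz2.

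A list of 20 other classical monocyte genes, 19 of them measured in each comparison, was read beside the 8. In tumor-bearing over naive blood 4 were at least 2-fold higher (beside 0.566% of all measured genes) and 0 lower: S100a8 (561 and 1685 CPM, naive and tumor-bearing) and S100a9 (604 and 1640 CPM), the calprotectin subunits, Ly6a (30.7 and 68.3 CPM) and the lectin receptor Clec4e (41.1 and 85.3 CPM). S100a8 and S100a9 are also on the neutrophil list. In spleen and in marrow 0 of 19 passed, beside 0.387% and 3.23% of measured genes either way. Ccr2, the marrow exit receptor, read 1758 CPM in naive marrow and 1015 CPM in naive blood, 1097 and 917 CPM in tumor-bearing marrow and blood, and 632 CPM in tumor tissue.

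In tumor tissue over tumor-bearing blood, 6 of the 19 other genes were higher and 4 lower, beside 10.9% and 9.44% of measured genes, with a median log2 ratio of -0.02 beside -0.98 for the 8 members. The largest was Cd14, the lipopolysaccharide co-receptor, at 2323 and 35.6 CPM, a 65.3-fold difference (55.9 to 76.7). Clec4d, a lectin receptor, read 461 and 46.0 CPM. S100a8 was 13.6-fold and S100a9 10.6-fold lower. Over tumor-bearing spleen 5 were higher and 4 lower (beside 10.7% and 12%), and over marrow 4 higher and 5 lower (beside 12.2% and 12.1%). Genes used for the same cell therefore went both ways in the tumor, with Vcan and Cd14 above and Chil3 and Mgst1 below the circulating level. S100a8 and S100a9 are also on the neutrophil list. Of its 9 measured genes, 9 were at least 2-fold lower in tumor tissue than in tumor-bearing blood, beside 9.44% of measured genes. The part of neutrophil RNA in the S100a8 and S100a9 ratios was not tested.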

How the data were processed

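RNA and antibody tags were read in single cells of 7 libraries, and each library is 1 group, named by tissue and by the presence of a tumor. The libraries were made with 10x 3′ chemistry, per the labels' protocols. Cell Ranger and mm10 appear in the submitters' processing notes. Its version, the gene annotation and any filter on cells were not given in the sources used for this work. Deposited by the authors were UMI counts (25127 genes, 4290 cells), antibody tag counts, tag values on a natural log scale (equal to the natural log of 1 plus the count per 10000), a mitochondrial fraction per cell and clusters at resolution 1. Their metadata also list 237 cells without counts (clusters 14, 15 and 18), which were left out. Their normalized RNA values were not used. No further cell filter and no doublet caller were applied; the alternative dropped the deepest 2% of cells in each library.

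UMIs were summed per library or cluster and scaled to CPM. No test was made, since a group is 1 library. A gene was called at 2-fold or more, with at least 30 UMIs in the 2 libraries and 20 CPM in 1. Ratios carry exact conditional binomial intervals and shares exact Clopper-Pearson intervals, at 95%. Cells were thinned to 2000 UMIs for shares, leaving out 57 shallower cells, of which 46 were from tumor tissue, and to 5000 UMIs for correlations over cells. Clusters were named from marker lists with at least 3 markers among the 10 leading genes, and left unnamed where other leading genes went against the name. All 8 members are named in each comparison; from other lists, up to 4 genes with the largest ratio past the call are named, and Ccr2 was added after its values were seen. The most similar genes were the 6 with the highest and 3 with the lowest Pearson correlation with the members' mean of standardised log2(CPM + 1), a scale computed here, and the top 2 per member. The members and lists were chosen with earlier results of these data known. Sequences and promoter windows came from RefSeq (GRCm38.p6), where all 8 members matched by symbol, and gene models and transcripts from GENCODE (GRCm38). Alternatives were other scalings (size factors, TMM), other totals, equal weight per cell, thinning, cells left out, equal mixes of clusters and no minimum. Tools were Python 3.11.15, numpy 2.4.6, scipy 1.17.1, pandas 2.3.3, Biopython 1.88, R 4.3.3 and edgeR 4.0.16 (TMM factors only). The counting script was tested on simulated data.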

Additional observations from a re-analysis of the deposited data

Results flagged for a closer look

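Ly6c2 ratios lay on different sides of 1 between tissues, and none was extreme among measured genes. The tumor-bearing to naive ratio was 1.17 in bone marrow and 1.07 in spleen, above 1, and 0.917 in blood, below 1. Counted from the highest, it ranked 1707 of 5505 measured genes in bone marrow, 1829 of 5426 in spleen and 4140 of 5300 in blood. Each ratio compares 1 library with 1 library, and the difference between tissues was not tested. Inside clusters the direction also varied: in blood, 1 of 5 clusters had a ratio above 1, and in spleen 2 of 5 did.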

How the results depend on the processing

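Of 876 alternative values of member ratios, 615 stayed within the counting interval of the reported value, 261 moved outside it and 0 turned a called direction. The setting with no minimum repeats the reported ratio of every member by construction. Its values are therefore always among the 615, and it could not change a member's call. Of 80 member comparisons, 72 stayed on 1 side of 1 in every setting. With cells thinned to 2000 UMIs, where Vcan rests on few UMIs, 1 member was at least 2-fold higher in tumor-bearing over naive bone marrow (0 reported), 0 in spleen (1 reported) and 0 in naive bone marrow over naive blood (1 reported); equal mixes of clusters also gave 0 there. With mitochondrial, ribosomal-protein and haemoglobin genes left out of the totals, 5 members were lower in tumor tissue than in tumor-bearing blood (3 reported), adding Plac8 and Lyz2, and against tumor-bearing spleen 0 were higher (1 reported) and Lyz1 was added to those lower, at a ratio of 0.481. F13a1 in tumor tissue over tumor-bearing blood passed with cells thinned to 2000 UMIs, at 0.486. Plac8 below tumor-bearing spleen was under 2-fold with size factors, TMM, equal weight per cell and both thinnings, and Lyz2 below tumor-bearing marrow with size factors and TMM. The Ly-6C tag difference of tumor tissue from tumor-bearing blood was -1.572 in raw counts. Raw counts turned the sign of 3 of 10 tag differences: tumor-bearing over naive blood (0.843, scaled -0.137), and tumor-bearing bone marrow (-0.374, scaled 0.303) and spleen (-1.13, scaled 0.169) over tumor-bearing blood. With Spearman's rank correlation 2 of the 6 most similar genes were shared, Cd177 and Ethe1. Equal mixes of clusters gave no value for tumor tissue, which shared no cluster of at least 5 cells with another library. No paired analysis was possible because each group had 1 library and the labels carry no replicate numbers. Depth limits Vcan most: inside cluster 4 it rests on 11 naive and 18 tumor-bearing blood UMIs. The 57 cells of tumor-bearing bone marrow limit that tissue.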
